A study of Mus musculus with 2 samples.

Results

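The neutrophil cluster of these mouse tumors, C18, holds 80 of the 11456 cells of the series, 41 in the S303/7A library and 39 in the WT library. Of the 80 cells, 24 also carried macrophage RNA, as described below. The neutrophils of a library here means all of its C18 cells, including such cells. The cells were taken by the cluster label in the deposited annotation, which puts C18 in a class named Gr together with cluster C22, 34 cells with mast cell genes. The S303/7A library came from tumors engrafted in mice with serine-to-alanine mutations in heat shock factor 1 (HSF1), and the WT library from tumors engrafted in wild-type mice. HSF1 induces chaperone genes when proteins misfold. Digested tumors were sorted for live cells, CD45-positive and CD45-negative fractions were recombined 5 to 1, and RNA was counted in droplets from its 3′ end. There was 1 library per genotype, made from pooled tumors (the design text speaks of 4 mice), and the sources used here give neither the tumor line nor the age, sex or strain of the mice. No difference below has a replicate check, no p-value is given, and intervals are exact 95% intervals that cover counting error only.

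Neutrophils are short-lived white cells made in the bone marrow under granulocyte colony-stimulating factor, which acts through Csf3r, and they enter tissue along chemokine gradients read by Cxcr2. They carry granules whose proteins are largely transcribed before the cells leave the marrow, large stores of the alarmins S100A8 and S100A9, and an oxidase that makes superoxide. In tumors they can release interleukin 1 and chemokines that draw in more neutrophils, and some of them restrain T cells through prostaglandins or arginine breakdown.

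Promoter stretches of 5 genes are shown because these genes carry the results: S100a9 and Retnlg mark the cluster, Cxcl2 is a chemokine among its leading genes, and Isg15 and Ifit3 are interferon response genes. Each stretch is 100 bases long, lies within the 250 bases before the gene's start, and comes from RefSeq on GRCm38.p6, read 5′ to 3′ on the gene's strand. Capitals mark matches to the C/EBP motif TTGCNNAA in S100a9 and Retnlg, to an NF-kB motif (GGGAA and CC with any 3 bases between) in Cxcl2, and to the interferon-stimulated response element (TTTC and TTTC with any 2 bases between) in Isg15 and Ifit3, on either strand.
S100a9 (chr3:90695872-90695971, minus strand): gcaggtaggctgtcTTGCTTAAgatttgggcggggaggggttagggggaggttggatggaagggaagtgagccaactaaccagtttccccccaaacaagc
Retnlg (chr16:48872358-48872457, plus strand): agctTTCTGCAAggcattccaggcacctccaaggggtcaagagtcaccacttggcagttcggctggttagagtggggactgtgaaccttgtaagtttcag
Cxcl2 (chr5:90903762-90903861, plus strand): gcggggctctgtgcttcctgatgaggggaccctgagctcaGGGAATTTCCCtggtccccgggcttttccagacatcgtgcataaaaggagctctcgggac
Isg15 (chr4:156200837-156200936, minus strand): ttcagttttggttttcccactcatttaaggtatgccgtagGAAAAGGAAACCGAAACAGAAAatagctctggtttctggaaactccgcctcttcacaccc
Ifit3 (chr19:34583333-34583432, plus strand): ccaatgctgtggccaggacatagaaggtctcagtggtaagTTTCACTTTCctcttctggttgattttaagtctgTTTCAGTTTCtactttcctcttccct

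The C/EBP motif was present in 3 of 8 leading genes of C18 that have a promoter entry (S100a9, Retnlg and Slpi), a share of 37.5%, against 9.56% of 32851 windows in the whole table. Over the listed neutrophil markers it was present in 3 of 16 windows, 18.75%. These are the same 3 genes, so the 2 counts are not separate observations. The leading genes were picked by their level in these data. The NF-kB motif was present in 1 of the 8 leading genes, Cxcl2, as 2 overlapping matches on opposite strands, against 4.94% of all windows. The interferon-stimulated response element was present in 10 of 21 interferon response genes, 47.6%, against 2.98% of all windows. It matched at 3 overlapping places in Isg15 and at 2 separate places in Ifit3. These are matches of letters, and binding was not measured.

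The leading genes go with the label. All 18 listed neutrophil markers were detected in C18, and 8 of its 10 leading genes against all other cells were among them. The cluster was drawn from expression, and the markers were chosen with earlier results of these data known. This overlap therefore describes the cluster and is no test of its label. S100a9 led, with a mean of 268 UMIs per 10000 UMIs of a cell (CP10K) in C18 against 0.0329 CP10K in all other cells, followed by S100a8, G0s2, Cxcl2, Retnlg, Hcar2, Slpi, Cxcr2, Gm5483 and Hdc. A UMI marks 1 captured RNA molecule. S100a9 was at 300.5 CP10K in S303/7A and 234 in WT neutrophils. S100a8 was at 166 CP10K in S303/7A and 183 in WT, and Csf3r at 7.56 in S303/7A and 8.11 in WT. All 3 were thus high in both libraries.

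A UMI of S100a8 was found in 95.0% of C18 cells (76 of 80, interval 87.7 to 98.6) at a median of 1210 UMIs per cell. Among CD8 T cells, which should lack the gene, 0.687% held a UMI of S100a8 at a median of 7267 UMIs, and among tumor cells 2.42% at a median of 26298. At least 5 UMIs of S100a8 and S100a9 together were found in 72 of 80 C18 cells, in 1 of 786 monocytes (class Mo), in 10 of 4065 macrophages (class MF), and in 16 of the 11376 cells outside C18. Markers of mast cells, eosinophils, dendritic cells and lymphocytes were low in C18, while those of macrophages summed to a mean of 81.5 CP10K (range over cells 0 to 526) and those of monocytes to 29.8 (0 to 159). The summed mean was 0.158 CP10K for mast cells and basophils (6 of 8 measured members at 0), 0.152 for eosinophils (1 of 2 at 0), 0.0369 for dendritic cells (6 of 8 at 0) and 2.61 for lymphocytes (3 of 10 at 0), against 636 for the neutrophil markers. Ly6g, the surface protein by which mouse neutrophils are usually sorted, had 1 UMI in the whole cluster.

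C18 made up 1.10% of the 3729 CD45-positive cells of the S303/7A library (interval 0.790 to 1.49) and 0.938% of the 4159 of the WT library (0.668 to 1.28). The ratio was 1.17 (0.738 to 1.87), so a difference in share was not detectable with this number of cells. All 80 cells fell in the copy number group CNV1, and none carried 1 of the 48 cell barcodes that the libraries share.

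The cells held little RNA. The median C18 cell had 1280 UMIs in S303/7A and 1125 in WT, and 525 detected genes over both. Monocytes had a median of 5037.5 UMIs and macrophages 8878, so C18 was at 0.240 of the monocyte and 0.136 of the macrophage median. Among the MF clusters, C09 came closest with 1683 UMIs, followed by C02 with 6926.5, C03 with 10041, C05 with 14876 and C13 with 15021.5. The whole libraries held 72802158 UMIs in S303/7A and 87075629 in WT, of which C18 contributed 185840 in S303/7A and 97991 in WT.

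Some C18 cells were deep and carried macrophage RNA. C1qa, C1qb and C1qc, the complement genes that mark macrophages, had at most 2 UMIs together in 56 cells (28 in S303/7A and 28 in WT), called C1q-low here. The other 24 cells (13 in S303/7A and 11 in WT), called C1q-high, held 4 to 446. Close to the boundary, 45 cells had 0 of these UMIs, 7 had 1, 4 had 2, 2 had 4, 1 had 5 and 1 had 8. C1q-high cells had a median of 8642.5 UMIs and 2283.5 genes, against 987.5 UMIs and 481 genes in C1q-low cells. Their median mitochondrial share was 3.26%, against 0.514% in C1q-low cells. The UMIs of the 10 macrophage markers had a median of 204 per C1q-high cell and 1 per C1q-low cell. C1qa, C1qb and C1qc are among these markers, so the split itself fixed part of this contrast. They alone had a median of 113 UMIs per C1q-high cell and 0 per C1q-low cell. The 7 class II genes, which did not set the split, had a median of 120 UMIs per C1q-high cell and 1 per C1q-low cell.

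The amount of neutrophil RNA per cell compared differently in the 2 libraries. S100a8 and S100a9 together had a median of 51 UMIs per C1q-high cell and 48.5 per C1q-low cell, and the 18 neutrophil markers 73.5 per C1q-high cell and 81.5 per C1q-low cell. In S303/7A the medians were close, with 64 UMIs of S100a8 and S100a9 per C1q-high cell and 67 per C1q-low cell, and 103 marker UMIs per C1q-high cell and 98 per C1q-low cell. In WT they were lower in C1q-high cells, with 10 UMIs of S100a8 and S100a9 per C1q-high cell and 39 per C1q-low cell, and 24 marker UMIs per C1q-high cell and 76 per C1q-low cell. As a share of the cell's UMIs, S100a8 and S100a9 were at a median of 0.343% in C1q-high cells and 4.64% in C1q-low cells. The doublet caller Scrublet gave C1q-high cells a median score percentile of 77.4 within their library and C1q-low cells 62.8, and none of the 80 was among the cells with the highest scores (207 in S303/7A and 361 in WT). Its automatic threshold marked 0.083% of the S303/7A cells and 0.842% of the WT cells, where 3.84% in S303/7A and 5.32% in WT were expected. That threshold was not used, and how well the scores find doublets in either library was not tested. Whether a C1q-high droplet held more than 1 cell was not tested. Levels below are therefore given for all 80 cells and, where they differ, for the C1q-low cells.

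**Figure D1:**
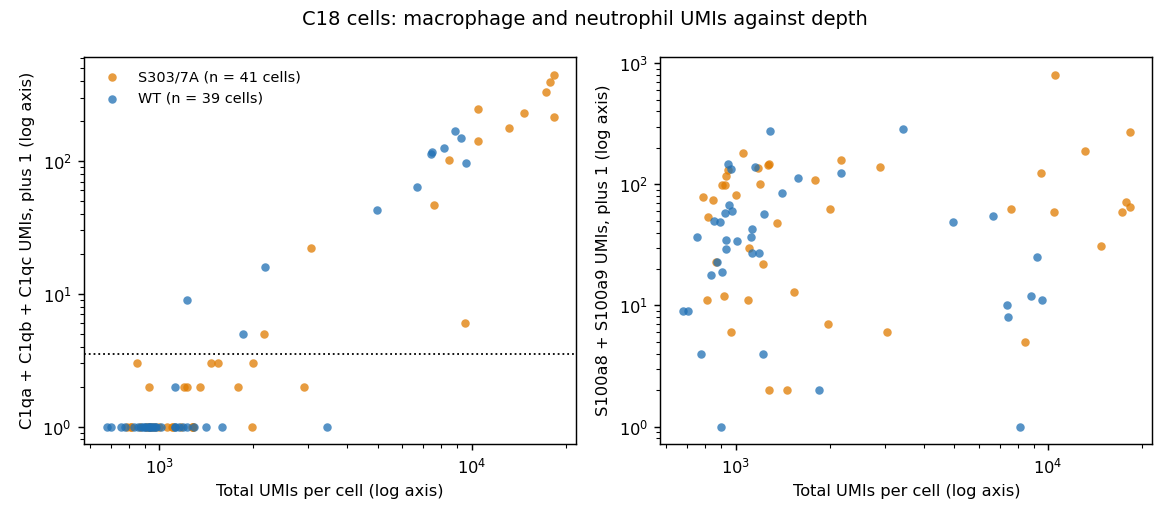
Each point is 1 of the 80 C18 cells, S303/7A in orange and WT in blue; the left panel plots UMIs of C1qa, C1qb and C1qc and the right panel UMIs of S100a8 and S100a9 (both plus 1, log axis) against the cell's total UMIs (log axis). The cells with more than 2 C1q UMIs lie mostly to the right, at high totals, while the ranges of S100a8 and S100a9 UMIs overlap between deep and shallow cells (medians 64 in C1q-high and 67 in C1q-low cells of S303/7A, and 10 in C1q-high and 39 in C1q-low cells of WT).

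The authors drew the cluster from the expression of these cells, so the differences from other clusters describe it and are no test of it. The log2 ratio of mean CP10K was taken with a pseudocount of 0.1 CP10K, which understates low genes, over genes found in at least 10% of the cells of 1 side. Against monocytes, 10.6% of 4940 genes were more than 2-fold higher in C18 and 21.0% more than 2-fold lower, with a median over all genes of -0.29. Against macrophages, 9.05% of 6748 genes were more than 2-fold higher and 24.7% lower, with a median of -0.47. In the C1q-low cells the shares were 11.7% higher and 38.8% lower against monocytes (4753 genes), and 11.8% higher and 46.3% lower against macrophages (6726 genes). The medians were then -0.54 against monocytes and -0.80 against macrophages. The balance of higher and lower genes depended on the scaling. With UMIs summed over all cells of a class, 364 genes were more than 2-fold higher and 415 lower against monocytes, and 300 higher and 348 lower against macrophages, where the mean over cells gave 525 higher and 1036 lower against monocytes and 611 higher and 1670 lower against macrophages.

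The neutrophil markers were all more than 2-fold higher than in both classes, with medians of 4.83 against monocytes and 5.22 against macrophages. The 8 monocyte markers were all lower than in monocytes, 6 of them more than 2-fold, with a median of -2.96. Chil3, a secreted chitinase-like protein, and Ly6c2, a surface protein of inflammatory monocytes, had the lowest ratios of all ranked genes. Ly6c2 was at 2.24 CP10K in C18 and 48.1 in monocytes, and Chil3 had 3 UMIs in C18.

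**Figure D2:**
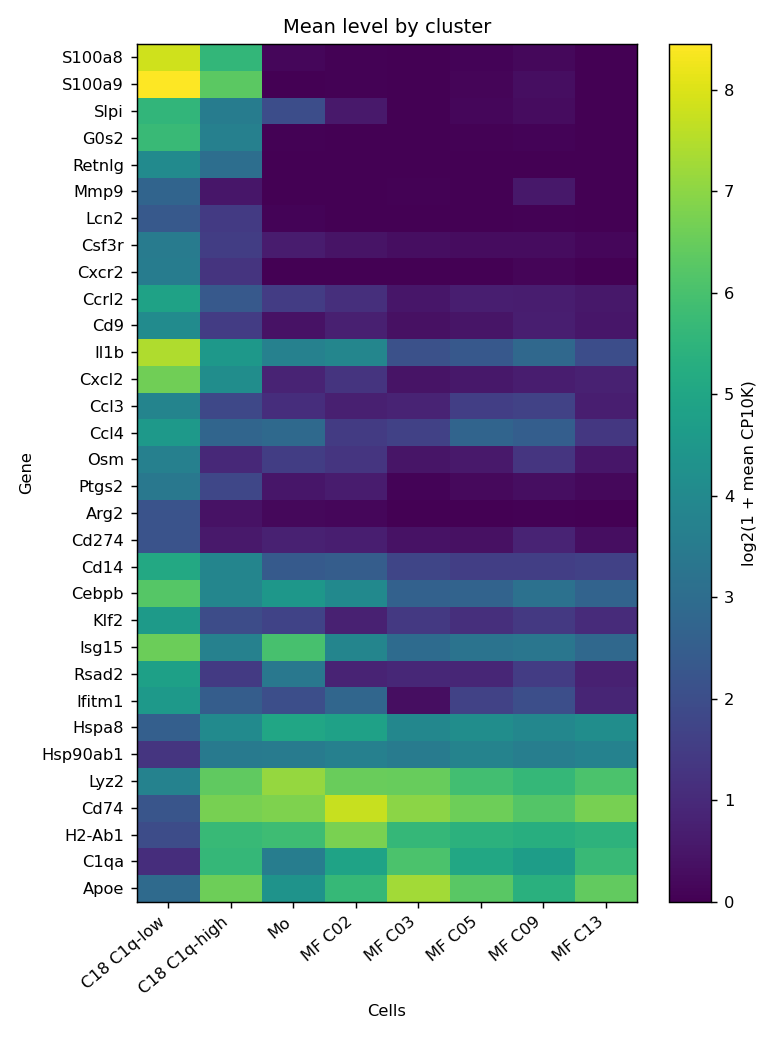
Mean level in CP10K (colour, log2 of 1 plus CP10K) of listed genes in C18 C1q-low cells, C18 C1q-high cells, monocytes and the MF clusters. S100a9 reached 349 CP10K in C1q-low and 79.4 in C1q-high cells against 0.0148 in monocytes, while Cd74 stood at 3.64 in C1q-low and 103 in C1q-high cells against 112 in monocytes.

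Some granule genes were present and others near 0. Of the genes listed for primary granules, Prtn3 had 2 UMIs and Ctsg 0 in C18. Serpinb1a, an inhibitor of granule proteases listed with them, had 2, and Mpo, Elane, Azu1, Ms4a3 and Bpi are not analysed here. The secondary granule gene Ltf (lactoferrin) had 5 UMIs, of which 5 were in C1q-high cells. Other secondary and tertiary granule genes were present. Mmp9, a gelatinase, was at 4.03 CP10K in C18 and 0.00550 in monocytes. Pglyrp1, which binds bacterial cell walls, was at 7.29 CP10K in C18 and 0.256 in monocytes. Lcn2, a siderophore-binding protein, was at 3.38 CP10K in C18 and 0.0512 in monocytes, and Mmp8, a neutrophil collagenase, at 1.04 in C18 and 0.125 in monocytes. In all, 7 of 10 secondary and tertiary granule genes with at least 0.1 CP10K were more than 2-fold higher in C18 than in monocytes and 1 (Cd177, 2 UMIs in C18) lower. The shares over all genes were 10.6% higher and 21.0% lower.

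The alarmins and protease inhibitors were higher in C18 throughout. S100a8 stood at 175 CP10K in C18, 0.0973 in monocytes and 0.0518 in macrophages. Slpi, an inhibitor of neutrophil elastase, was at 35.6 CP10K in C18, 2.96 in monocytes and 0.202 in macrophages. S100a11 was at 42.3 CP10K in C18 and 16.7 in monocytes. Of 8 genes of the group, 6 were more than 2-fold higher than in monocytes, 7 than in macrophages, and all 8 had a ratio above 0. Among all genes 10.6% were more than 2-fold higher than in monocytes and 9.05% than in macrophages.

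Of the receptors for chemoattractants and growth factors, 9 of 15 were more than 2-fold higher in C18 than in monocytes and 2 lower. All genes had 10.6% higher and 21.0% lower. Cxcr2, the receptor for Cxcl2 and its relatives, was at 6.54 CP10K in S303/7A and 9.43 in WT neutrophils. It was found in 47 of 80 C18 cells and in 0 of 786 monocytes, where the interval allows a UMI in up to 0.468% of cells at a median of 5037.5 UMIs per cell, and does not limit the share that expresses the gene. Ccrl2, which presents the attractant chemerin, was at 20.9 CP10K in C18 and 1.80 in monocytes. Ccr1, a receptor for Ccl3 and its relatives, was at 11.3 CP10K in C18 and 2.59 in monocytes, and C5ar1, the receptor for complement fragment C5a, at 4.09 in C18 and 0.489 in monocytes. Csf1r, the macrophage growth factor receptor, was at 0.499 CP10K in C1q-low cells, 6.02 in C1q-high cells and 2.25 in monocytes.

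Of 11 adhesion and migration genes, 2 were more than 2-fold higher in C18 than in monocytes and 2 lower, against 10.6% higher and 21.0% lower over all genes. These counts are thus not far from the background. Cd9, a tetraspanin, was at 11.8 CP10K in C18 and 0.321 in monocytes, and Cd44, which binds hyaluronan, at 7.12 in C18 and 2.37 in monocytes. The integrin genes Itgam and Itgb2 were at 0.970 and 1.71 CP10K in C18 and 1.09 and 1.75 in monocytes.

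Of 17 cytokine and chemokine genes, 11 were more than 2-fold higher in C18 than in monocytes and 4 lower. Among all genes 10.6% were higher and 21.0% lower, so the 4 lower ones are not far from the background. Il1b, interleukin 1 beta, was at 137 CP10K in S303/7A and 119 in WT neutrophils, against 12.0 in monocytes and 7.03 in macrophages. A UMI of it was found in 77 of 80 C18 cells, against 78.4% of monocytes and 13.1% of CD8 T cells. Cxcl2, a ligand of Cxcr2, was at 89.1 CP10K in S303/7A and 56.4 in WT neutrophils, against 0.804 in monocytes and 0.775 in macrophages. Ligand and receptor were thus both high in C18. Cxcl1, another ligand of that receptor, had 0 UMIs in C18.

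Ccl3, which attracts monocytes and T cells, was at 9.80 CP10K in C18 and 1.14 in monocytes, and its relative Ccl4 at 17.3 in C18 and 6.35 in monocytes. Il1rn, the interleukin 1 receptor antagonist, was at 7.86 CP10K in C18 and 3.78 in monocytes, and Osm, an interleukin 6 relative, at 8.54 in C18 and 1.93 in monocytes. The monocyte attractant Ccl2 and the T cell attractant Cxcl16 were mainly in the cells with macrophage RNA, at 0.206 and 0.326 CP10K in C1q-low cells and at 3.54 and 6.72 in C1q-high cells.

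**Figure D3:**
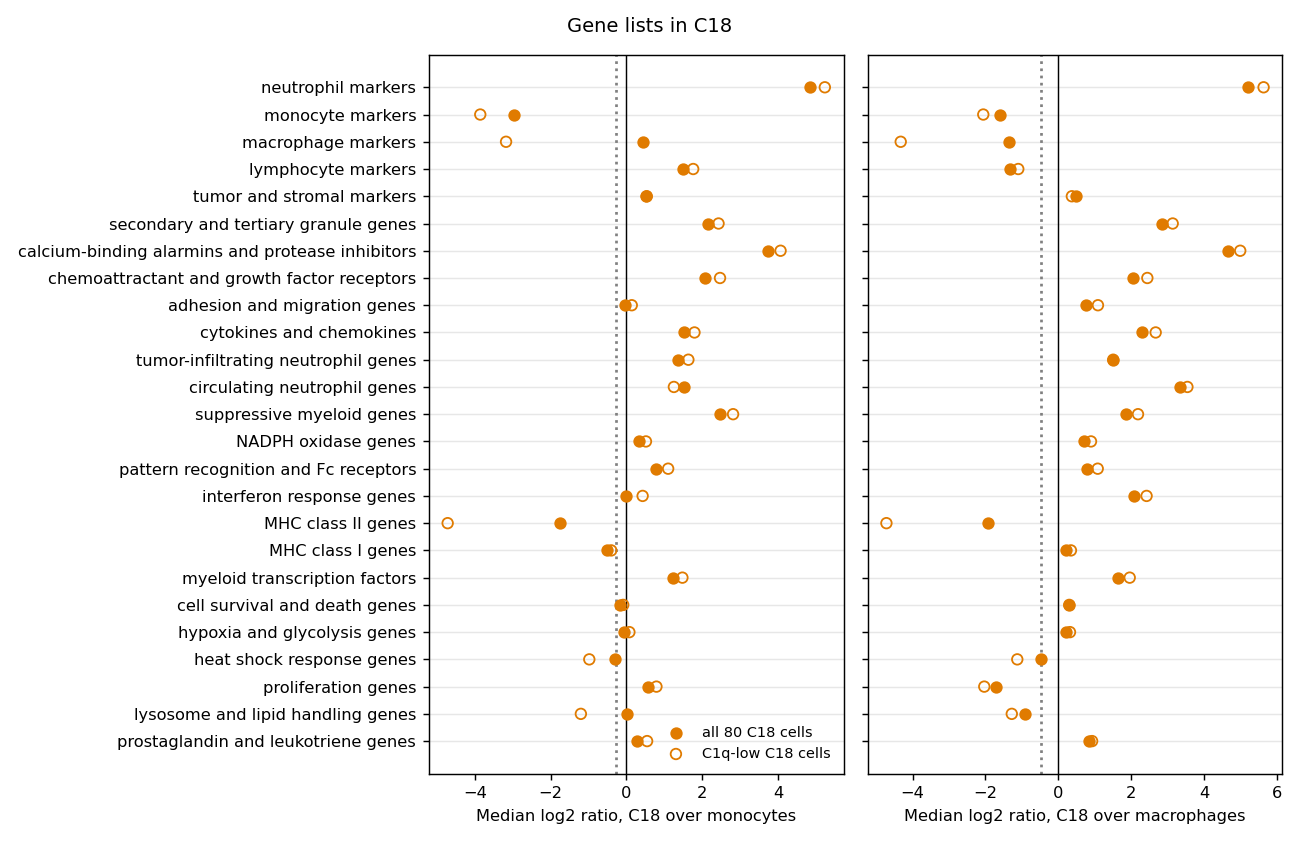
Median log2 ratio of each gene list in C18 over monocytes (left) and over macrophages (right), for all 80 cells (filled) and C1q-low cells (open); the dotted line is the median of all genes compared with all 80 cells (-0.29 and -0.47). Neutrophil markers lie farthest right. The macrophage markers are at 0.44 against monocytes with all 80 cells and at -3.18 in C1q-low cells, and they include the C1q genes by which those cells were chosen.

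Genes described in tumor-infiltrating neutrophils were present beside those of blood neutrophils. Of 18 of the tumor list, 10 were more than 2-fold higher in C18 than in monocytes and none lower. Among all genes 10.6% were higher than in monocytes and 21.0% lower. Cd274 (PD-L1, the ligand of the checkpoint receptor PD-1) was at 2.56 CP10K in C18 and 0.721 in monocytes, and Spp1 (osteopontin) at 5.43 in C18 and 1.57 in monocytes. Cd14, the coreceptor for bacterial lipopolysaccharide, was at 27.4 CP10K in C18 and 4.28 in monocytes. Siglecf and Vegfa, described in mouse tumor neutrophils, had 4 and 2 UMIs in C18. Of 10 genes of the blood list, 5 were more than 2-fold higher and 2 lower, against 10.6% higher and 21.0% lower over all genes. Retnlg, a resistin relative, was at 12.9 CP10K in C18 and 0.00161 in monocytes. Lyz2 (lysozyme), a gene of both cell types, was at 12.5 CP10K in C1q-low cells, 82.8 in C1q-high cells and 139 in monocytes.

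Of the genes linked to suppression of T cells, 8 of 12 were more than 2-fold higher in C18 than in monocytes and none lower. The shares over all genes were 10.6% higher and 21.0% lower. Ptgs2, the cyclooxygenase that starts prostaglandin synthesis, was at 7.33 CP10K in C18 and 0.435 in monocytes, while Ptges, the synthase of prostaglandin E2, had 1 UMI. Arg2, the mitochondrial arginase, was at 2.55 CP10K in C18 and 0.138 in monocytes. Arg1, the cytosolic arginase, had 8 UMIs, of which 8 were in C1q-high cells, and Nos2, the inducible nitric oxide synthase, had 0. Clec4e, a lectin that reads mycobacterial glycolipids, was at 5.94 CP10K in C18 and 0.956 in monocytes, and Trem1, which amplifies inflammatory signals, at 4.17 in C18 and 0.204 in monocytes.

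Of 15 pattern recognition and Fc receptor genes, 7 were more than 2-fold higher in C18 than in monocytes and 2 lower. All genes had 10.6% higher and 21.0% lower. The signalling adaptors Tyrobp and Fcer1g were found in 80 and 79 of the 80 cells, at 88.9 and 51.0 CP10K in C18 and 42.3 and 54.2 in monocytes. Of 7 oxidase genes, 2 were more than 2-fold higher and 1 lower, against 10.6% higher and 21.0% lower over all genes. Cybb, the catalytic subunit, was at 1.06 CP10K in C18 and 5.21 in monocytes, and Ncf1, a cytosolic subunit, at 2.22 in C18 and 1.00 in monocytes.

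Interferon response genes were above macrophage levels in C18, and their place against monocytes depended on the scaling. Against monocytes, 4 of 23 were more than 2-fold higher in C18 and 5 lower, with a median of -0.01. All genes had 10.6% higher and 21.0% lower, with a median of -0.29. In C1q-low cells 8 of the 23 were higher and 4 lower, with a median of 0.43. All genes there had 11.7% higher and 38.8% lower, with a median of -0.54. With UMIs summed over all cells of a class, the median against monocytes was -0.79. Against macrophages, 18 were more than 2-fold higher and none lower, with a median of 2.09, or 1.39 with summed UMIs. Among all genes 9.05% were higher than in macrophages and 24.7% lower, with a median of -0.47. Isg15, a ubiquitin-like protein induced by interferon, was at 68.9 CP10K in C18, 63.2 in monocytes and 9.39 in macrophages. Ifitm1, which blocks virus entry, was at 17.2 CP10K in C18, 3.12 in monocytes and 2.84 in macrophages. Rsad2 (viperin) was at 19.2 CP10K in C18, 9.39 in monocytes and 0.991 in macrophages.

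Class II genes were lower in C18. All 7 class II genes were more than 2-fold lower than in both classes, with medians of -1.74 against monocytes and -1.92 against macrophages, and of -4.72 against each in C1q-low cells. With summed UMIs the medians were no longer past 2-fold, at -0.70 against monocytes and -0.57 against macrophages, and with cells thinned to 1000 UMIs the median against monocytes was -1.09. Cd74, the invariant chain, was found in 19 of 56 C1q-low cells, at 3.64 CP10K. Irf8, a transcription factor of monocytes and dendritic cells, had 1 UMI in C1q-low cells and was at 2.36 CP10K in C1q-high cells and 4.06 in monocytes. Class I genes lay closer, with 1 of 10 listed genes more than 2-fold lower than in monocytes and none higher. The shares over all genes were 21.0% lower and 10.6% higher. H2-Q10, a class I gene outside that list, ranked among the highest ratios against both classes, at 5.12 CP10K in C18, 0.0542 in monocytes and 0.0355 in macrophages. Reads can be split among the closely related H2-Q genes, so its level is uncertain.

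Of 23 transcription factor genes, 13 were more than 2-fold higher than in monocytes and 3 lower, against 10.6% and 21.0% over all genes. Cebpb, a factor of emergency granulopoiesis, was found in 80 of 80 cells, at 55.2 CP10K in C18 and 21.4 in monocytes. Klf2, which restrains inflammatory activation, was at 17.2 CP10K in C18 and 2.25 in monocytes. Junb, a subunit of AP-1, was at 38.8 CP10K in C18 and 12.8 in monocytes, and Nfkbia, the inhibitor and target of NF-kB, at 15.6 in C18 and 4.17 in monocytes.

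Lists of housekeeping processes are set beside all genes, of which 10.6% were more than 2-fold higher in C18 than in monocytes and 21.0% lower. Against monocytes, 4 of 20 cell survival and death genes were more than 2-fold higher in C18 and 2 lower, 4 of 22 hypoxia and glycolysis genes higher and 1 lower, and 2 of 7 prostaglandin and leukotriene genes higher and 1 lower. Mcl1, which keeps neutrophils alive, was at 10.7 CP10K in C18 and 4.41 in monocytes. Of 14 lysosome and lipid handling genes, 2 were more than 2-fold higher and 3 lower, and in C1q-low cells 3 were higher and 8 lower. Their median in C1q-low cells was -1.20, against -0.54 for all genes, of which 11.7% were higher and 38.8% lower. Of 7 cell cycle genes, 1 was more than 2-fold higher than in monocytes and 0 lower, with a median of 0.58 against -0.29 for all genes. Of 10 set against macrophages, 0 were more than 2-fold higher and 7 lower, with a median of -1.72 against -0.47 for all genes. All genes had 9.05% higher and 24.7% lower than in macrophages. Among the cell cycle genes, Mki67 had 0 UMIs in C18 and Top2a 4.

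Chaperone genes include the known targets of HSF1. Hsf1 itself (chr15:76477422-76501913) had 1 UMI in S303/7A and 1 UMI in WT neutrophils, with 0 in C1q-low cells. Hspa1a, the inducible HSP70, was at 0.103 CP10K in C18, with 0 UMIs in C1q-low cells, and at 1.39 in monocytes. Hspa8, the constitutive HSP70, was at 4.94 CP10K in C1q-low cells, 15.7 in C1q-high cells and 30.7 in monocytes. Hsp90ab1, a constitutive HSP90, was at 1.45 CP10K in C1q-low cells, 10.2 in C1q-high cells and 10.5 in monocytes. Of 19 genes of the list, 1 was more than 2-fold higher in C18 than in monocytes and 4 lower. The shares over all genes were 10.6% higher and 21.0% lower. In C1q-low cells 3 of 18 were higher and 9 lower, with a median of -0.98 against -0.54 for all genes. Over all genes 11.7% were higher and 38.8% lower in that comparison, so these counts are not far from the background.

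The C1q-low cells differed among themselves. In the 28 of them with at least 1000 UMIs, thinned to that number, S100a8, S100a9 and Il1b were each found in 27 cells, Cxcl2 in 23, Isg15 in 24, Cxcr2 in 19, Ccl3 in 11, Cd274 in 9, Cxcl10 in 7 and Retnlg in 5. Without thinning, Retnlg had a UMI in 16 of 56 cells, and its 5 highest cells held 72.4% of its 87 UMIs. The corresponding share was 79.2% for Cxcl10, 71.2% for Rsad2, 69.6% for Ccl3, 28.7% for S100a9 and 18.1% for Tyrobp. A few cells thus carried most of the Cxcl10, Rsad2 and Ccl3 RNA. Hilpda, a lipid droplet protein induced by low oxygen, was found in 5 cells, and 1 of them held 20 of its 42 UMIs.

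Genes of blood neutrophils and of activation were found in overlapping cells. At least 1 UMI of Retnlg, Lcn2 or Mmp8 was present in 23 of the 56 C1q-low cells, and of Ccl3 or Ccl4 in 22, with 8 cells holding both. Of the 12 cells with Cxcl10, a chemokine induced by interferon, 11 also held Ifit1, Ifit3 or Rsad2, which were found in 38 cells. Cd274 was found in 16 cells, of which 14 held a UMI of those interferon genes. At a median of 987.5 UMIs per cell, a gene with no UMI may still be expressed.

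Between the genotypes, C18 of the S303/7A library was set against C18 of the WT library over genes found in at least 20% of the cells of 1 library. Of 1952 genes, 15.2% were more than 2-fold higher in S303/7A and 8.76% more than 2-fold lower, with a median of 0.07. In C1q-low cells 15.1% of 867 genes were higher and 15% lower. In monocytes the same shares were 0.774% in each direction (4007 genes), and in macrophages 0.375% higher and 0.544% lower (5335 genes). C18 had 41 cells in S303/7A and 39 in WT, monocytes 267 in S303/7A and 519 in WT, and macrophages 2082 in S303/7A and 1983 in WT, so far fewer UMIs stand behind each gene in C18. Depth differed less in C18 than in those classes, where the median was 9020 UMIs in S303/7A and 4292 in WT monocytes, and 14044 in S303/7A and 5388 in WT macrophages; its part in the values below was not tested. Of the 18 neutrophil markers, 6 were higher and 12 lower in S303/7A, 1 of them more than 2-fold, with a median of -0.14. In C1q-low cells 5 were higher and 13 lower, 2 of them more than 2-fold, with a median of -0.18.

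Interferon response genes were lower in S303/7A neutrophils. Of 23 genes, 21 had a lower mean in S303/7A than in WT, 12 of them more than 2-fold and none higher past 2-fold, with a median log2 ratio of -1.03. In C1q-low cells 21 were lower, 11 more than 2-fold, with a median of -0.90. In monocytes 22 of 23 were lower in S303/7A (2 more than 2-fold, median -0.65), and in macrophages 23 of 23 (4 more than 2-fold, median -0.86). The direction was thus shared by the 3 classes. Over all genes, the share more than 2-fold lower in S303/7A was 8.76% in C18 and 15% in C1q-low cells. That share was 0.774% in monocytes and 0.544% in macrophages, so the counts past 2-fold do not rank the classes by size of difference.

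Ifit3, an antiviral protein, was at 5.65 CP10K in S303/7A and 20.3 in WT neutrophils, a ratio of UMI shares of 0.301 (0.213 to 0.420). Ifitm3 was at 27.4 CP10K in S303/7A and 64.7 in WT, a ratio of 0.399 (0.345 to 0.463). Gbp2, a guanylate-binding protein, was at 4.56 CP10K in S303/7A and 12.9 in WT, a ratio of 0.205 (0.133 to 0.309). Each of these intervals lies below 1. Rtp4 was at 8.05 CP10K in S303/7A and 21.5 in WT, a ratio of 0.350 (0.255 to 0.477), and Socs1, a feedback inhibitor of cytokine signalling, at 0.506 CP10K in S303/7A from 6 UMIs and at 3.30 in WT from 18. The ratios divide by all C18 UMIs, of which C1q-high cells held 151426 of 185840 in S303/7A and 67543 of 97991 in WT. That imbalance lowers the ratio of a gene found mainly in C1q-low cells, and its part in these ratios was not tested.

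The difference was not uniform over cells or genes. In C1q-low cells the 23 genes took a median of 1.53% of a cell's UMIs in S303/7A (range 0.168 to 16.2) and 4.64% in WT (0 to 10.4). The highest cell was thus from S303/7A, and the ranges overlapped. Fewer than 1% of UMIs came from these genes in 9 of 28 S303/7A cells and 3 of 28 WT cells. Isg15 was at 85.5 CP10K in S303/7A and 101 in WT C1q-low cells, with a UMI ratio of 1.06 (0.903 to 1.24). Rsad2 was higher in S303/7A, at 29.5 CP10K and 158 UMIs in 12 S303/7A cells and 23.9 CP10K and 68 UMIs in 19 WT cells, and 1 cell held 64 of these UMIs. In monocytes the median share of a cell's UMIs was 2.16% in S303/7A and 3.40% in WT, and in macrophages 0.338% in S303/7A and 0.799% in WT.

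The summed level of the monocyte markers was lower in S303/7A as well, but the markers did not move together. The 8 markers summed to a mean of 13.8 CP10K in S303/7A (range over cells 0 to 75.8) and 52.1 in WT (0 to 159) C1q-low cells, against 140.1 in S303/7A and 242 in WT monocytes. Most of the sum in C1q-low cells was Plac8, at 11.5 CP10K in S303/7A and 48.0 in WT, and Ly6c2 was at 0.887 in S303/7A and 2.97 in WT. Fn1 had 2 UMIs in S303/7A and 3 in WT, and F13a1 and Ms4a4c had 1 UMI each in S303/7A and 0 in WT. Ccr2, the receptor that draws monocytes into tissue, Chil3 and Vcan were at 0 in C1q-low cells of both libraries. The part of the monocyte markers in the interferon values was not tested.

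**Figure D4:**
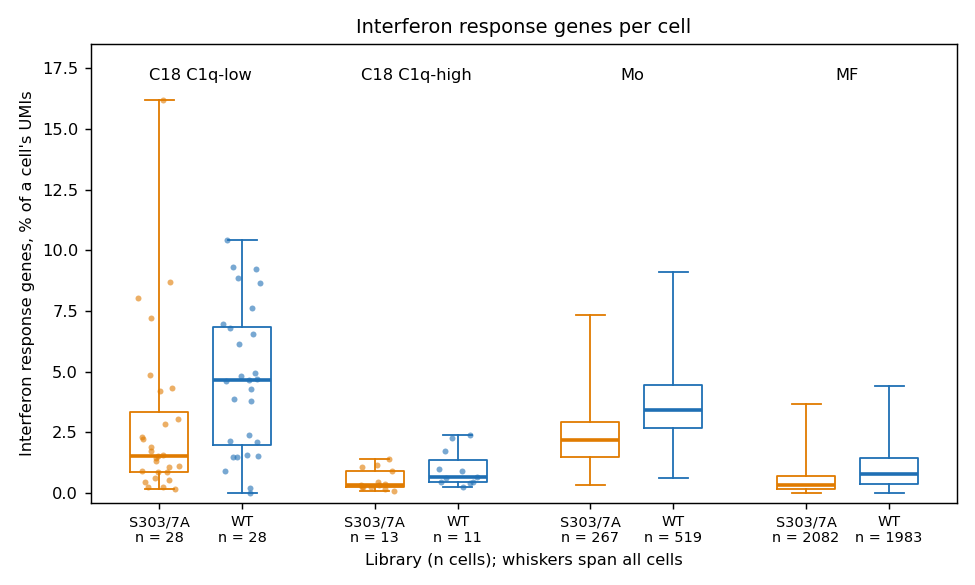
Share of a cell's UMIs from the 23 interferon response genes, by library, in C1q-low and C1q-high C18 cells, monocytes and macrophages; points are C18 cells, and boxes span the quartiles with the median as a line. S303/7A medians lie below WT medians in each class (1.53% and 4.64% in C1q-low cells), with overlapping ranges.

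Gsr had the highest ratio of all ranked genes. Gsr, glutathione reductase (chr8:33652523-33698163), restores reduced glutathione, an antioxidant. It was at 8.11 CP10K in S303/7A neutrophils, found in 27 of 41 cells with 42 UMIs, and at 0.0690 CP10K in WT neutrophils, found in 2 of 39 cells with 2 UMIs. The log2 ratio of Gsr was 5.60, and the ratio of UMI shares 11.1 (2.88 to 94.4). In C1q-low cells it was found in 19 of 28 S303/7A cells and 0 of 28 WT cells. In monocytes Gsr was also higher in S303/7A, at 2.44 CP10K against 0.464 in WT, a UMI ratio of 4.28 (3.48 to 5.31). In macrophages Gsr was lower in S303/7A, at 0.273 CP10K against 0.429 in WT, a UMI ratio of 0.602 (0.533 to 0.679). Furin, a protease that matures secreted proteins, had 16 UMIs in 14 S303/7A cells and 0 in WT, and Etv6, a transcriptional repressor, 11 UMIs in 9 S303/7A cells and 0 in WT.

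Ly6i, Tpm3-rs7 and Plac8 differed in the same direction in neutrophils and in the other classes given. Ly6i (chr15:74979534-74983430), on the chromosome that carries Hsf1, was at 0.224 CP10K in S303/7A and 5.24 in WT neutrophils, at 2.87 in S303/7A and 6.94 in WT monocytes, and at 0.535 in S303/7A and 4.21 in WT macrophages. Tpm3-rs7, a copy related to the tropomyosin gene Tpm3, was at 2.19 CP10K in S303/7A and 0 in WT neutrophils, and at 3.90 in S303/7A and 0.102 in WT monocytes. Tpm3 itself was at 0.519 CP10K in S303/7A and 2.58 in WT neutrophils. Reads can be split between such copies, so neither level is certain. Plac8, a monocyte marker, was at 8.35 CP10K in S303/7A and 39.9 in WT neutrophils, and at 82.8 in S303/7A and 142 in WT monocytes. Ccl5, a T cell attractant, was at 1.04 CP10K in S303/7A and 12.2 in WT neutrophils, with 2 UMIs in S303/7A and 11 in WT C1q-low cells.

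A few neutrophil genes differed by more than their counting intervals. Wfdc17, a small secreted protein of myeloid cells, was at 15.3 CP10K in S303/7A and 2.92 in WT neutrophils, and its UMI ratio in C1q-low cells was 5.07 (2.65 to 10.7). The 5 highest C1q-low cells held 59.5% of its 74 UMIs there. In monocytes Wfdc17 was at 6.78 CP10K in S303/7A and 9.62 in WT. Cxcl2 was at 118 CP10K in S303/7A and 76.5 in WT C1q-low cells, a UMI ratio of 1.91 (1.63 to 2.23), and its 5 highest cells held 51.8% of its UMIs. Cxcr4, which holds neutrophils in the marrow, was at 1.47 CP10K in S303/7A and 5.77 in WT, a UMI ratio of 0.264 (0.120 to 0.548). Lcn2 was at 5.26 CP10K in S303/7A, in 13 cells, and at 1.41 in WT, in 5 cells. Among C1q-low cells, the 5 highest held 70.3% of its 37 UMIs.

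The macrophage markers were higher in S303/7A than in WT C18 for 9 of 10 genes, and lysosome and lipid handling genes for 13 of 14. Past 2-fold, 3 of the 10 and 3 of the 14 were higher, against 15.2% of all genes. The medians were 0.65 for the macrophage markers and 0.79 for the lysosome and lipid genes, against 0.07 for all genes. Apoe, a lipid carrier of macrophages, was at 52.4 CP10K in S303/7A and 12.8 in WT C18, and at 123 in S303/7A and 38.8 in WT macrophages. C1q-high cells were 13 of 41 C18 cells in S303/7A and 11 of 39 in WT, 30.0% in all (interval 20.3 to 41.3), and their part in these values was not tested. The 10 macrophage markers summed to a mean of 109 CP10K in S303/7A (range over cells 0 to 526) and 52.4 in WT (0 to 329.7) C18 cells. In C1q-low cells the sum was 17.6 CP10K in S303/7A and 7.16 in WT, with 2 markers at 0 in S303/7A and 6 in WT. Those cells were chosen for few UMIs of C1qa, C1qb and C1qc, which are among the 10 markers.

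Chaperone genes differed between all C18 cells and the C1q-low cells. In all 80 cells 9 of 18 were higher and 9 lower in S303/7A, 3 higher and 2 lower past 2-fold, with a median of 0.04. Past 2-fold, 15.2% of all genes were higher and 8.76% lower. In C1q-low cells 10 of 14 were higher and 4 lower, 7 higher and 3 lower past 2-fold, with a median of 0.60 against -0.03 for all genes. Few UMIs stand behind these ratios: in C1q-low cells Dnajb1, a cochaperone of HSP70, had 2 UMIs in S303/7A and 4 in WT, and Hsp90ab1 6 in S303/7A and 3 in WT. In monocytes 8 of 19 were higher and 11 lower in S303/7A (median -0.11), and in macrophages 3 of 20 were higher and 17 lower (median -0.21). Hspa8 was at 7.82 CP10K in S303/7A and 8.51 in WT neutrophils, a UMI ratio of 0.815 (0.663 to 1.00). Hspa5, a chaperone of the endoplasmic reticulum, was at 4.22 CP10K in S303/7A and 2.09 in WT, a UMI ratio of 1.46 (0.885 to 2.50). Hsp90aa1, the inducible HSP90, was at 7.86 CP10K in S303/7A and 1.87 in WT, but 1 cell held 21 of its 32 UMIs in C1q-low cells.

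**Figure D5:**
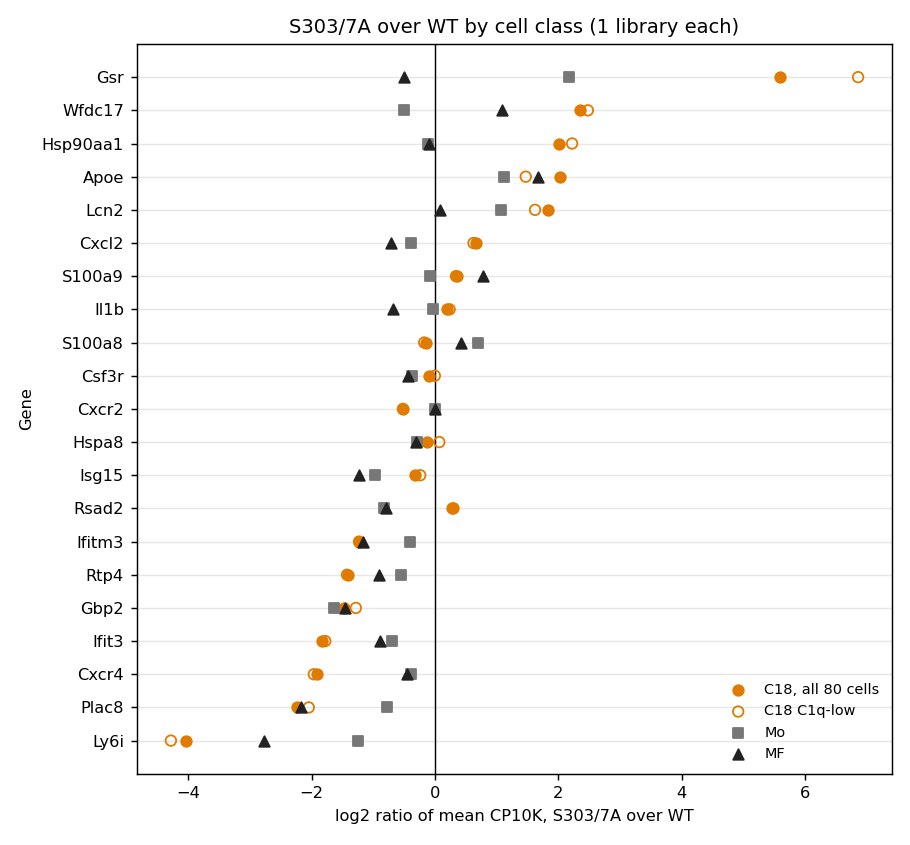
Log2 ratio of S303/7A over WT for named genes in C18 (all 80 cells, filled circles), C18 C1q-low cells (open circles), monocytes (squares) and macrophages (triangles), from mean CP10K with a pseudocount of 0.1. Gsr lies at 5.60 in C18, and the interferon genes Ifit3, Ifitm3, Rtp4 and Gbp2 lie left of 0 in C18, monocytes and macrophages.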

How the data were processed

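Single cells from pooled tumors were measured in 1 S303/7A and 1 WT library. Expression was deposited as natural log values, ln of 1 plus UMIs scaled to 100000 per cell, as the numbers themselves show; the deposited cell table gives the count of UMIs and of detected genes per cell, the mitochondrial percent, clusters and classes. Cell Ranger, Seurat 3.0 and the builds mm10 and GRCm38 are named in the submitters' processing notes; their cell filters were not found in the labels.

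UMIs were recovered by inverting the log: 99.94% of 32243534 nonzero values came out within 0.1 of a whole number, and each of the 11456 cells kept its number of genes. Levels are means over cells of UMIs per 10000 (CP10K). Differences are log2 ratios with a pseudocount of 0.1 over genes found in at least 10% of the cells of 1 side (20% between libraries), called past 2-fold. No count model was run, since there is 1 library per genotype. Ratios of UMI shares carry exact conditional 95% intervals, and shares exact binomial ones. Such intervals treat UMIs as independent and leave out the spread between cells and between mice. For C18 as a whole, the UMI ratios divide by totals to which C1q-high cells gave 218969 of 283831 UMIs. Doublets were scored with Scrublet as run in scanpy 1.11.5 and kept. A list gene needs at least 0.1 CP10K in 1 compared side. List genes were not held to the share of cells, so lists and all genes passed unlike filters. The 30 lists hold 358 genes, of which 339 were matched. Members and lists were chosen with earlier results of these data known. Named genes are list members, the leading genes, the 15 highest and lowest ratios against monocytes or macrophages and the 10 highest and lowest between libraries; Tpm3 was named after its values were seen. Some list members are counted in their lists and not reported here by name. Promoter sequences and motif searches used RefSeq windows of GRCm38.p6, and gene positions GRCm38. The fold and interval steps were tested on simulated data. Python 3.11.15, NumPy 2.4.6, SciPy 1.17.1 and pandas 2.3.3 were used.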

Additional observations from a re-analysis of the deposited data

Results flagged for a closer look

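In 6 genes the UMI ratio of S303/7A over WT lay on one side of 1 in C18, with all 80 cells and with C1q-low cells alone, and on the other side in monocytes or macrophages, each with a counting interval that excludes 1. The difference between classes was not tested, and the intervals leave out the spread between cells. Gsr had a ratio of 11.1 (2.88 to 94.4) in C18 and 0.602 (0.533 to 0.679) in macrophages, while monocytes were on the C18 side with 4.28 (3.48 to 5.31). Wfdc17 had a ratio of 3.75 (2.46 to 5.96) in C18 and 0.635 (0.594 to 0.679) in monocytes. Cxcl2 had a ratio of 1.43 (1.24 to 1.65) in C18, 0.634 (0.512 to 0.783) in monocytes and 0.563 (0.519 to 0.610) in macrophages. Rsad2 had a ratio of 1.49 (1.13 to 1.99) in C18, 0.549 (0.516 to 0.585) in monocytes and 0.545 (0.507 to 0.586) in macrophages, and 1 C1q-low cell held 64 of its 226 UMIs in those cells. Hsp90aa1 had a ratio of 2.08 (1.18 to 3.85) in C18 and 0.901 (0.865 to 0.938) in macrophages, with 21 of 32 UMIs of C1q-low cells in 1 cell. S100a8 had a ratio of 0.861 (0.794 to 0.935) in C18, 2.77 (1.38 to 6.05) in monocytes and 2.06 (1.37 to 3.21) in macrophages, where its levels were 0.164 CP10K in S303/7A and 0.0627 in WT monocytes. Among CD8 T cells, which should lack the gene, 1.30% of 617 S303/7A cells and 0.144% of 693 WT cells held a UMI of S100a8. Among tumor cells 2.67% in S303/7A and 2.32% in WT held one, with means of 0.0169 CP10K in S303/7A and 0.0215 in WT. The direction in monocytes and macrophages was thus seen in CD8 T cells, from few cells, and not in the tumor cell means. Since cells that should lack the gene also held its UMIs, no expression in monocytes or macrophages is read from them.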

How the results depend on the processing

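No paired analysis was possible because there is 1 library per genotype. Counts of genes more than 2-fold apart depended on the settings more than list medians did. Against monocytes, the 525 higher and 1036 lower genes became 174 and 138 with a pseudocount of 1 CP10K, 220 and 527 when a gene had to be seen in 25% of cells, and 282 and 283 with cells thinned to 1000 UMIs. The lower ones became 415 with summed UMIs, 1844 with C1q-low cells and 1605 in the S303/7A library alone. Against macrophages, the 611 higher and 1670 lower became 250 and 139 with the larger pseudocount, 341 and 946 with the stricter filter, 321 and 217 with thinning, and 300 and 348 with summed UMIs, and 3116 were lower with C1q-low cells. Between S303/7A and WT, the 296 higher became 184 with summed UMIs, 45 with the larger pseudocount, 179 with the stricter filter, 131 with C1q-low cells and 121 with thinning, and the 171 lower became 47 with the larger pseudocount and 105 with the stricter filter. Of the list medians, 627 stayed within 1.5-fold of their value and 81 moved further, with no called median changing sign. With summed UMIs the neutrophil marker median was 3.74 against monocytes and 4.14 against macrophages, and the macrophage marker median 1.45 against monocytes. The median of the interferon list between S303/7A and WT lay between -1.12 and -0.66 over its alternatives.

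With the shallowest 10% of each library's cells left out, C18 was 0.333% of the CD45-positive cells in S303/7A and 0.283% in WT, and with all cells as the denominator 0.586% in WT. The mean depth was 3548 UMIs, against the median of 1210. Some named genes changed sign after having been past 2-fold. With the WT library alone, the log2 ratio of Gsr was -1.74 against monocytes and -1.65 against macrophages, and that of Hilpda -0.33 against macrophages. With summed UMIs, Hspa1a was at 0.20 and Lyz2 at 0.16 against macrophages. With thinning, Ncf1 was at -0.061 and Siglecf at -0.0362 against macrophages. Between S303/7A and WT, thinning put Csf1r at -0.0316, Hsp90aa1 at -0.0302 and Mmp8 at -0.42, leaving out the shallowest cells put Hsp90aa1 at -0.22, and summed UMIs put Siglecf at 0.37. The cause was not tested. The 64862 UMIs of C1q-low cells limit what can be seen of genes with few UMIs.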
